A study of Mus musculus with 10 samples.

Results

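The transcripts described here are 10 genes of T cells and natural killer (NK) cells, Cd3d, Cd3e, Cd3g, Cd4, Cd8a, Nkg7, Gzma, Gzmb, Prf1 and Klrd1, measured by RNA sequencing in myeloid cells isolated from tumor-bearing mice. They were chosen by gene symbol, through the GRCm38 annotation of the Ensembl identifiers, and all 10 of 10 were found among the 55421 genes of the count table. The set was chosen from earlier results of these same data, so its values are a description, and no p-value is given for its members.

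The 10 libraries fell into 4 groups. Myeloid-derived suppressor cells (MDSC) of the spleen came from Shp2f/f mice in 2 libraries and from Shp2f/fLysMcre mice in 2 libraries. Tumor-associated macrophages (TAM) from the tumor site came from Shp2f/f mice in 3 libraries and from Shp2f/fLysMcre mice in 3 libraries. All mice carried floxed alleles of Ptpn11, which encodes the phosphatase SHP-2, and all bore MC17-51 fibrosarcomas for 15 days. Shp2f/fLysMcre mice additionally carried Cre recombinase in the Lyz2 (lysozyme M) locus, which is active in myeloid cells and is not a T or NK cell driver, so the deletion was not aimed at the lymphocytes that make most of these transcripts. Neither the number of mice behind a library nor which MDSC and TAM libraries shared mice is given in the sources used here, so p-values measure the spread between these libraries. MDSC were separated with magnetic beads and TAM were sorted as live CD45+CD11b+F4/80+Ly6G- cells, so no library was meant to hold T or NK cells.

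Cd3d, Cd3e and Cd3g encode the CD3 chains that carry the signal of the T cell receptor, and T cells are their main source. CD4 and CD8 are the co-receptors that bind MHC class II and class I molecules, and CD4 is also made by macrophages and dendritic cells, whereas CD8α is also made by a subset of dendritic cells. Cytotoxic lymphocytes store perforin (Prf1) and granzymes (Gzma, Gzmb) in granules, where NKG7 is also found, and KLRD1 (CD94) is the shared subunit of the NKG2 receptors of NK cells. Granzyme B can also be made by some myeloid cells.

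The CD3 genes lie together on chromosome 9 of GRCm38. Cd3g (44969572-44980431, minus strand) and Cd3d (44981786-44987339, plus strand) are divergent neighbours whose start sites are 1355 bases apart, and Cd3e (44998740-45009627, minus strand) starts 27841 bases from Cd3d. Of the others, Cd4 (124864692-124888221), Cd8a (71373427-71379173) and Klrd1 (129591782-129598775) are on chromosome 6, Nkg7 (43437073-43438249) on chromosome 7, Gzma (113093825-113100981) on chromosome 13, Gzmb (56258838-56262260) on chromosome 14 and Prf1 (61297833-61304680) on chromosome 10. Counts covered the exons. The exons of Cd3e overlap those of Gm48719 on the other strand over 135 bases, and since the strand setting of the counting was not stated, reads there cannot be assigned with certainty. For Gzmb, 0.573% of the 42-base stretches of its exons, the read length, also occur in another gene (Gzmc), and for Cd4, Cd3g, Nkg7, Gzma, Prf1 and Klrd1 none do.

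The promoters of Nkg7, Gzma, Gzmb and Prf1 are printed because these 4 genes, which share a cytotoxic role, were all lower in TAM of Shp2f/fLysMcre mice and went in different directions in MDSC. The sequences are from RefSeq (GRCm38.p6), run 5′ to 3′ on the gene's own strand, and end at or before the annotated first exon: Nkg7 at chr7:43436888-43437072 (plus), Gzma at chr13:113100982-113101231 (minus), Gzmb at chr14:56262335-56262584 (minus) and Prf1 at chr10:61297586-61297832 (plus). Capitals mark the RUNX core TGTGGT, or ACCACA where the match is on the other strand.
Nkg7: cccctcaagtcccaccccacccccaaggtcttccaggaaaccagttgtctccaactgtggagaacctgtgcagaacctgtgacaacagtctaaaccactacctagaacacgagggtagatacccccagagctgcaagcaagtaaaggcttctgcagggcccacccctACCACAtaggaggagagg
Gzma: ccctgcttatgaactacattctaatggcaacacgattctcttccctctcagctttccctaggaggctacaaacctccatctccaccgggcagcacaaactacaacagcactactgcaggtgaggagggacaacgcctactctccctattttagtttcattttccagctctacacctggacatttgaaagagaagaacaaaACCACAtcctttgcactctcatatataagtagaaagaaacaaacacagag
Gzmb: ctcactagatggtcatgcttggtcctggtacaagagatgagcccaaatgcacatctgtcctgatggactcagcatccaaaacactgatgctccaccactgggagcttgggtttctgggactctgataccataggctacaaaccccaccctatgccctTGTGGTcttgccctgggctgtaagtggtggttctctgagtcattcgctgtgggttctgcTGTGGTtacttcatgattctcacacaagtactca
Prf1: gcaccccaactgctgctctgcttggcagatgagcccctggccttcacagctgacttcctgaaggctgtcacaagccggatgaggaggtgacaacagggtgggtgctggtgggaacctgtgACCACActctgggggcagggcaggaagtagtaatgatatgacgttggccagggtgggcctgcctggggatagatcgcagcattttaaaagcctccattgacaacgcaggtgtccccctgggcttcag

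The RUNX core occurred 1 time in the promoters of Nkg7, Gzma and Prf1 and 2 times in that of Gzmb, and 0 times in those of Cd3d, Cd3e, Cd3g and Cd8a. It is held by 14.0% of all 32851 promoters searched over the same 250 bases before the start. The ETS core GGAA (both strands) was in 7 of the 8 promoters, all but Gzmb, and in 93.4% of all promoters, and the E-box CANNTG was in 8 of 8 and in 66.2% of all. No RUNX match overlapped a match of the other motifs. Such matches are letters in a window and were not tested as binding sites. The promoters of Cd4 and Klrd1 are named only.

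Total counts were between 28844660 and 38222998 per library, so that 3 counts, taken as the floor, correspond to 0.0785 to 0.104 CPM, the gene's count scaled to a library total of 1e+06. Levels below are CPM of the total count, and fold changes are from the edgeR fit, whose scaling differs slightly. Ptpn11, counted over the whole gene, was at 123 to 126 CPM in TAM of Shp2f/f mice and at 46.6 to 50.8 CPM in TAM of Shp2f/fLysMcre mice, and at 102 to 117 and 87.1 to 97.5 CPM in MDSC. The macrophage genes Csf1r and Adgre1 were at 1126 to 1487 and 229 to 396 CPM in MDSC, where the neutrophil gene Ly6g was at 9.20 to 34.1 CPM. Library MDSC Shp2f/fLysMcre replicate 2 stood apart, with a summed level of 8 stromal genes of 573 CPM against 7.28 to 25.7 CPM in the other 3 MDSC libraries, so values of the members in MDSC are also given without it. Xist was higher and Ddx3y lower in Shp2f/fLysMcre mice of both cell types (Ddx3y log2 fold change -1.08 in MDSC and -1.07 in TAM), and the labels do not give sex, so sex makeup and genotype cannot be told apart.

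Cd4 and the other transcripts of the set moved in opposite directions in TAM of Shp2f/fLysMcre mice. Cd4 was 2.95-fold higher, and the other 9 transcripts were lower, from 1.74-fold for Cd3d to 3.69-fold for Gzma. In MDSC the same genes split, with Cd3d, Cd3e, Cd3g and Nkg7 higher in both libraries of Shp2f/fLysMcre mice than in both of Shp2f/f mice, Cd8a, Gzmb, Prf1 and Klrd1 lower, and Cd4 and Gzma overlapping. In bulk samples, fewer cells of a type and less RNA per cell cannot be told apart.

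**Figure D1:**
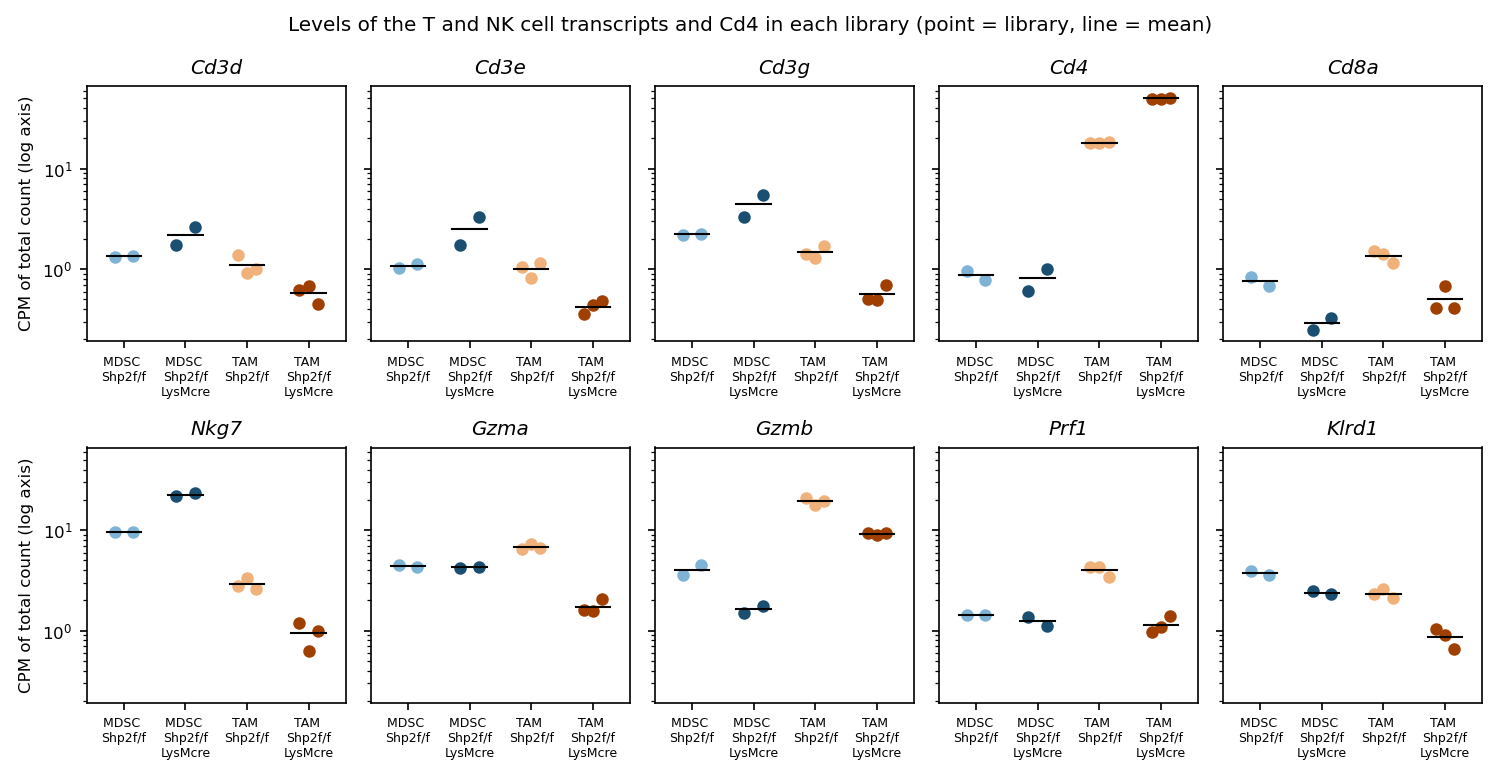
Each panel plots 1 gene, with the CPM of the total count on a log axis and the 4 groups along the horizontal axis; a point is a library and a line is the group mean. Cd4 sits near 50 CPM in the 3 TAM libraries of Shp2f/fLysMcre mice and near 18 CPM in the 3 of Shp2f/f mice, whereas the points of the other 9 genes are lower in the former.

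Cd4 was the most even of the transcripts in TAM. It was at 18.1, 18.1 and 18.2 CPM in the 3 TAM libraries of Shp2f/f mice, resting on 599 to 690 counts, and at 49.8, 49.5 and 51.0 CPM in the 3 of Shp2f/fLysMcre mice, resting on 1471 to 1818 counts. The groups did not overlap, and the log2 fold change was 1.56 (SE 0.0424, n = 3 per group). MDSC held far less Cd4, at 0.962 and 0.774 CPM in Shp2f/f mice and at 0.613 and 1.01 CPM in Shp2f/fLysMcre mice, on 22 to 37 counts per library. These MDSC values overlapped (log2 fold change -0.15, SE 0.363), and the direction turned to 0.01 without Shp2f/f replicate 1 and to 0.10 without Shp2f/fLysMcre replicate 1. Between the cell types of Shp2f/f mice, Cd4 was 21.2-fold higher in TAM than in MDSC (log2 fold change 4.40, SE 0.115). This comparison of cell types uses the control libraries of both genotype comparisons and is not independent of them.

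The CD3 chains fell in TAM and had higher values in MDSC. Cd3g was at 1.42, 1.28 and 1.70 CPM in TAM of Shp2f/f mice and at 0.504, 0.491 and 0.693 CPM in TAM of Shp2f/fLysMcre mice (log2 fold change -1.29, SE 0.242). Cd3e was at 1.06, 0.811 and 1.14 CPM and at 0.355, 0.436 and 0.485 CPM (log2 fold change -1.14, SE 0.267). For both genes every library of the first group was above every library of the second. Cd3d, the smallest of the 10 differences in TAM, was at 1.39, 0.916 and 1.002 CPM and at 0.622, 0.681 and 0.451 CPM (log2 fold change -0.80, SE 0.273). Its highest TAM value was that of Shp2f/f replicate 1, and without that library the log2 fold change was -0.61 and the gene was no longer called. The call was also lost without Shp2f/fLysMcre replicate 1 (log2 fold change -0.84) or replicate 3 (-0.64) and with DESeq2 (-0.79). All 3 chains rested on few reads, 12 to 61 counts per TAM library.

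In MDSC, Cd3g was at 2.19 and 2.26 CPM in Shp2f/f mice and at 3.32 and 5.50 CPM in Shp2f/fLysMcre mice (log2 fold change 0.93, SE 0.284). Cd3e was at 1.02 and 1.13 CPM and at 1.73 and 3.31 CPM (log2 fold change 1.17, SE 0.363). The value for replicate 2 of Shp2f/fLysMcre, the library with stromal transcripts, was the highest for each chain. Cd3d was at 1.32 and 1.37 CPM and at 1.76 and 2.63 CPM (log2 fold change 0.65, SE 0.290). Without that library the log2 fold changes were 0.58 for Cd3g, 0.69 for Cd3e and 0.39 for Cd3d. None of the 3 chains was called in MDSC, and levels in TAM and MDSC of Shp2f/f mice were close, at log2 fold changes of -0.27 (SE 0.260) for Cd3d, -0.08 (SE 0.260) for Cd3e and -0.58 (SE 0.205) for Cd3g. Cd3g was called in that comparison and Cd3d and Cd3e were not. The Cd3g call was lost with DESeq2, with no filter on low counts, without MDSC Shp2f/f replicate 1 (-0.60) or 2 (-0.56), and without TAM Shp2f/f replicate 1 (-0.55) or 2 (-0.50). Cd3e turned to 0.038 without TAM Shp2f/f replicate 2.

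Cd8a, the α chain of the CD8 co-receptor, was low in every library and differed from the CD3 chains in MDSC. It was at 0.842 and 0.684 CPM in MDSC of Shp2f/f mice and at 0.251 and 0.328 CPM in MDSC of Shp2f/fLysMcre mice, on 9 to 28 counts (log2 fold change -1.43, SE 0.379). In TAM it was at 1.51, 1.41 and 1.14 CPM and at 0.415, 0.681 and 0.416 CPM (log2 fold change -1.31, SE 0.271). Neither set of libraries overlapped between genotypes. The difference had the same sign in both cell types, and the gene was called in TAM and not in MDSC. Without the library with stromal transcripts the MDSC value was -1.58.

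Nkg7, a granule protein of cytotoxic lymphocytes, had the widest gap of the 10 genes between its genotype differences in TAM and MDSC, a gap that was not tested. It was at 9.53 and 9.67 CPM in MDSC of Shp2f/f mice and at 21.7 and 23.4 CPM in MDSC of Shp2f/fLysMcre mice, on 317 to 856 counts (log2 fold change 1.19, SE 0.118). In TAM it was at 2.82, 3.32 and 2.62 CPM and at 1.18, 0.627 and 1.01 CPM (log2 fold change -1.54, SE 0.232). The MDSC difference was the same, 1.19, without the library with stromal transcripts. Its call was lost when either Shp2f/f library was left out (1.17 without replicate 1 and 1.20 without replicate 2). Nearly all calls over all genes were lost in those fits too. Among Shp2f/f mice Nkg7 was 3.23-fold lower in TAM than in MDSC (log2 fold change -1.69, SE 0.128).

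Gzma, a granzyme with trypsin-like activity, had the largest fall of the 10 genes in TAM and overlapping values in MDSC. TAM libraries held 6.57, 7.25 and 6.70 CPM in Shp2f/f mice and 1.60, 1.58 and 2.05 CPM in Shp2f/fLysMcre mice (log2 fold change -1.88, SE 0.126). MDSC libraries held 4.51 and 4.34 CPM and 4.18 and 4.35 CPM, which overlapped (log2 fold change -0.10, SE 0.190). Prf1, the pore-forming protein that lets granzymes enter target cells, had the next largest fall in TAM. It was at 4.33, 4.26 and 3.45 CPM and at 0.978, 1.09 and 1.39 CPM in TAM (log2 fold change -1.71, SE 0.174), and at 1.44 and 1.43 CPM and at 1.37 and 1.12 CPM in MDSC (log2 fold change -0.24, SE 0.290). The MDSC values of Prf1 did not overlap but differed by less than their standard error. Without the library with stromal transcripts the MDSC values were -0.07 for Gzma and -0.06 for Prf1.

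Gzmb, the granzyme that cleaves after aspartate, had the highest level per kilobase of the cytotoxic transcripts in TAM and was lower with Shp2f/fLysMcre in both cell types. TAM libraries held 21.1, 17.8 and 19.4 CPM in Shp2f/f mice and 9.33, 9.05 and 9.33 CPM in Shp2f/fLysMcre mice, on 269 to 697 counts (log2 fold change -0.97, SE 0.0710). MDSC libraries held 3.61 and 4.49 CPM and 1.505 and 1.78 CPM (log2 fold change -1.35, SE 0.245). The MDSC call was lost without Shp2f/f replicate 1 (-1.50) or 2 (-1.18), with total-count scaling, with DESeq2 size factors and with no filter on low counts. Without either Shp2f/f library, nearly all calls over all genes were lost. Klrd1, the CD94 subunit, was also lower in both. It was at 2.30, 2.59 and 2.11 CPM and at 1.04, 0.899 and 0.659 CPM in TAM (log2 fold change -1.32, SE 0.214), and at 3.97 and 3.601 CPM and at 2.48 and 2.30 CPM in MDSC (log2 fold change -0.70, SE 0.226). Among Shp2f/f mice, TAM exceeded MDSC for Gzmb 4.86-fold (log2 fold change 2.28, SE 0.116), for Prf1 2.83-fold (SE 0.182 on the log2 scale), for Cd8a (0.85, SE 0.264, its call lost at 0.71 without MDSC Shp2f/f replicate 2) and for Gzma (0.65, SE 0.112), and were below MDSC for Klrd1 (-0.67, SE 0.165). Between the genotypes, the ranges of Gzmb and of Klrd1 did not overlap in either cell type. Klrd1 was not called in MDSC. Without the library with stromal transcripts the MDSC values were -1.42 for Gzmb and -0.60 for Klrd1.

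**Figure D2:**
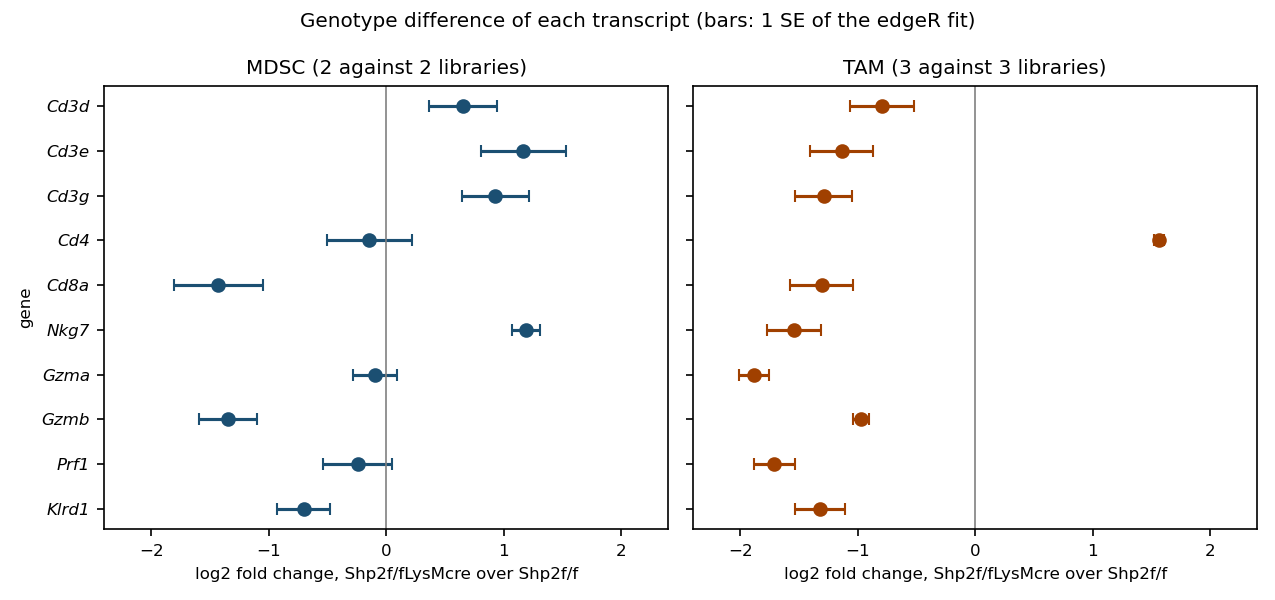
The log2 fold change of Shp2f/fLysMcre over Shp2f/f is plotted for each of the 10 genes, in MDSC on one side and TAM on the other, with bars of 1 SE of the edgeR fit. In TAM, Cd4 is at 1.56 and the other 9 genes are between -1.88 and -0.80, whereas in MDSC the genes spread from -1.43 for Cd8a to 1.19 for Nkg7.

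Counted over the set, all 10 genes passed the low-count filter in each comparison. In TAM, 1 was called higher and 9 lower at an adjusted p under 0.05, where 50.2% of the 14446 genes tested were called, 23.9% higher and 26.3% lower. In MDSC, Nkg7 was called higher and Gzmb lower, where 4.28% of 14806 genes were called, 3.76% higher and 0.520% lower. Between TAM and MDSC of Shp2f/f mice, 5 were called higher and 3 lower, where 78.8% of 15659 genes were called, 40.0% higher and 38.8% lower. Leaving out any MDSC library left 1 library in its group, and calls over all genes then varied widely. The number of members called in each such fit is therefore not given.

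The ranges of the libraries were compared in the same way. In TAM all 10 genes had no overlap between the genotypes (1 higher and 9 lower), where 59.9% of the genes tested had none, 18.9% higher and 40.9% lower. In MDSC 8 of 10 had none (4 higher and 4 lower), where 47.8% of the genes tested had none, 27.5% higher and 20.3% lower. Between the cell types of Shp2f/f mice 5 genes were higher in TAM and 3 lower without overlap, where 86.0% of the genes tested had no overlap, 42.6% higher and 43.4% lower. The median log2 fold change of the 10 genes was -1.30 in TAM, -0.12 in MDSC and 0.28 between the cell types, beside -0.01, -0.01 and 0.01 over all genes tested. Since the genes were chosen with these contrasts known, nothing is read from these counts. By total-count scaling the median over all genes in TAM was -0.11 in place of -0.01, and the members kept their signs.

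Per kilobase of exon (RPKM), the order of the 10 transcripts differed between the groups. In MDSC of Shp2f/f mice the order ran from Nkg7 (mean 10.5 RPKM) through Gzma (4.40), Klrd1 (2.95), Gzmb (2.82), Cd3d (0.742), Cd3g (0.682), Prf1 (0.556), Cd3e (0.264) and Cd4 (0.215) to Cd8a (0.210). The values of Klrd1 and Gzmb, and of Cd4 and Cd8a, overlapped between libraries. In MDSC of Shp2f/fLysMcre mice Nkg7 (24.7 RPKM) and Gzma (4.24) again led, Cd4 (0.202) and Cd8a (0.0796) were again last, and Cd3g (1.35) and Cd3d (1.21) lay above Gzmb (1.14) with values that overlapped between neighbours. TAM of Shp2f/f mice were led by Gzmb (13.5 RPKM), Gzma (6.80), Cd4 (4.50) and Nkg7 (3.19). The last places in that group were held by Cd3d (0.608), Cd3g (0.449), Cd8a (0.373) and Cd3e (0.246). Its values of Klrd1 and Prf1, of Cd3d and Cd3g, and of Cd3g and Cd8a overlapped between libraries. In TAM of Shp2f/fLysMcre mice Cd4 (12.4 RPKM) came first, followed by Gzmb (6.43), Gzma (1.73) and Nkg7 (1.03). Neighbours from Nkg7 through Klrd1 to Prf1 and from Cd3g through Cd8a to Cd3e overlapped there, so their order is not resolved by the spread between libraries.

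The ratio of Cd4 to the mean of the 3 CD3 chains, all per kilobase, sets Cd4 against transcripts of T cells. In MDSC it was 0.434 and 0.334 for Shp2f/f and 0.190 and 0.191 for Shp2f/fLysMcre, so Cd4 was below the CD3 chains in all 4 libraries. In TAM it was 9.23, 12.3 and 10.1 in Shp2f/f mice and 63.5, 58.3 and 65.5 in Shp2f/fLysMcre mice. The ratio was above 1 in all 6 TAM libraries, and the genotypes did not overlap. On the log2 scale it was -1.39 ± 0.266 (SD, n = 2), -2.39 ± 0.00791 (SD, n = 2), 3.38 ± 0.210 (SD, n = 3) and 5.96 ± 0.0868 (SD, n = 3) in the 4 groups in that order. With Lck, Cd2 and Cd5 in place of the CD3 chains it was -2.96, -2.45, 2.14 and 4.45, so the order of the MDSC genotypes turned while that of TAM stayed.

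**Figure D3:**
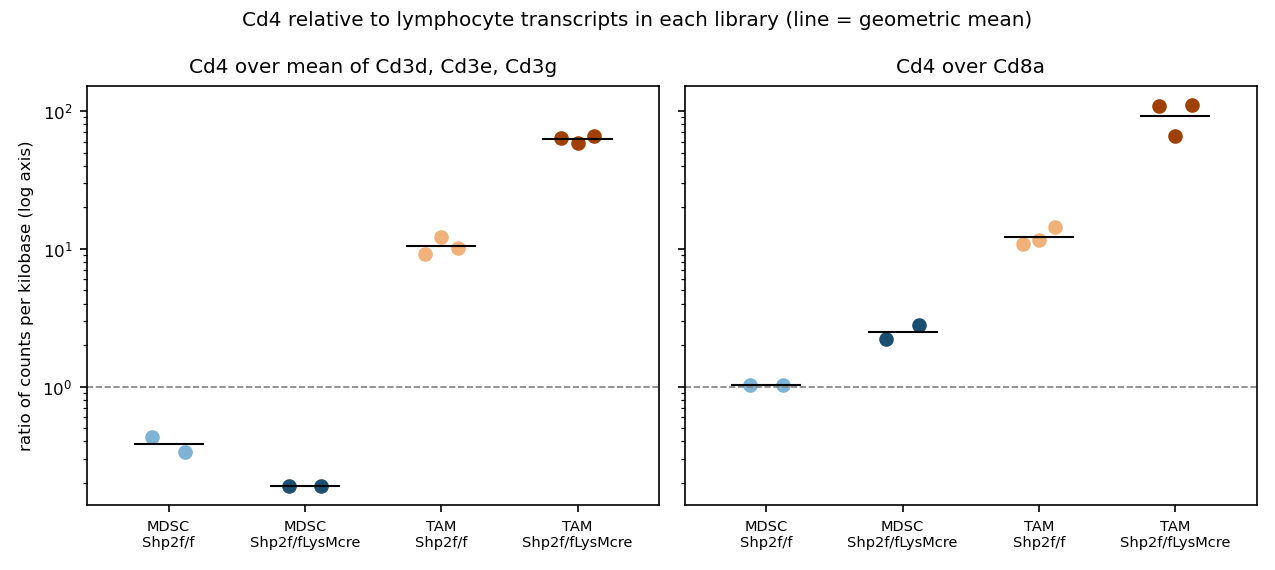
Ratios of counts per kilobase are plotted on a log axis for each library in the 4 groups, Cd4 over the mean CD3 chain in one panel and Cd4 over Cd8a in the other; the line is the geometric mean and the dashed line a ratio of 1. Cd4 over CD3 lies below 1 in MDSC, and ranges from 9.23 to 65.5 in TAM.

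Against Cd8a, the ratio of Cd4 was 1.03 and 1.02 in MDSC of Shp2f/f mice and 2.20 and 2.78 in MDSC of Shp2f/fLysMcre mice, and in TAM it was 10.8 to 14.4 and 65.6 to 111. Gzmb was also set against the CD3 chains, since it can be made outside T cells. Its ratio was 30.1, 33.9 and 29.95 in TAM of Shp2f/f mice and 33.4, 29.9 and 33.6 in TAM of Shp2f/fLysMcre mice, so the fall of Gzmb in TAM was of the size of the fall of the CD3 chains and the genotypes overlapped. In MDSC the ratio was 4.57 and 5.45 in Shp2f/f mice and 1.31 and 0.943 in Shp2f/fLysMcre mice, without overlap. For Nkg7 over CD3 the MDSC values of Shp2f/fLysMcre mice were 29.7 and 19.5 around a mean of 24.1, beside a mean of 18.7 in Shp2f/f mice.

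Likeness to other genes was described by Pearson's r of log2(CPM + 0.5) over the 10 libraries, which share the difference between cell types. Cd4 was compared with 12597 genes and the CD3 mean with 12598, being those that averaged 1 CPM or more and the members. The genes most like Cd4 were Nfkbiz (r = 0.9993), Mgarp (0.9981), Ctsb (0.9981), Litaf (0.9979) and Apoe (0.9977). Those most like the mean of the CD3 chains, the chains themselves aside, were Tcf7 (0.990), Rhno1 (0.989) and Cbx7 (0.989). Cd4 had r = -0.85 with the CD3 mean, and r = 0.79 with Gzmb, 0.27 with Cd8a, 0.20 with Prf1, -0.42 with Gzma, -0.81 with Klrd1 and -0.96 with Nkg7. With the CD3 mean, Nkg7 had r = 0.94, Klrd1 0.68, Gzma 0.57, Prf1 0.009, Cd8a -0.19 and Gzmb -0.64.

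Other T cell genes, a list of 21 that holds further receptor, co-receptor and signalling genes, were lower in TAM of Shp2f/fLysMcre mice for most members. Of 18 tested, 15 were called lower, 1 higher and 2 not called, with a median log2 fold change of -1.01. Skap1, an adaptor of T cell adhesion, fell from a mean of 1.88 to 0.385 CPM (log2 fold change -2.16, SE 0.361, edgeR adjusted p = 0.000464). Lat, the membrane adaptor that T cell receptor signalling builds on, fell from 5.75 to 2.13 CPM (-1.33, edgeR adjusted p = 2.21e-05). Trac, the constant part of the αβ receptor, fell with them (-1.03). Cd2 and Cd28 were not called, at log2 fold changes of -0.28 (edgeR adjusted p = 0.317) and -0.40 (edgeR adjusted p = 0.0614). Il7r, the interleukin-7 receptor, had the highest CPM of the list and rose from 69.7 to 86.5 CPM (0.41, SE 0.0604, edgeR adjusted p = 0.000189).

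In MDSC, 20 of these genes were tested and edgeR called 0, with 11 at an unadjusted p under 0.05, and DESeq2 called 6, of which 5 were higher. Of all 14806 genes tested, 2859 had an unadjusted p under 0.05, edgeR called 633 and DESeq2 called 1256. The median log2 fold change was 0.76, and 14 of 20 genes were above 0. Without the library with stromal transcripts the median was 0.44. Thy1, a surface protein of mouse T cells that fibroblasts also make, was at 3.13 and 2.98 CPM in Shp2f/f mice and at 5.74 and 14.9 CPM in Shp2f/fLysMcre mice, the last being that library (log2 fold change 1.69, edgeR adjusted p = 0.105). Without that library the value for Thy1 was 0.92. The constant chains of the αβ receptor, Trac, Trbc1 and Trbc2, were not called, at log2 fold changes of -0.25, 0.55 and 0.82, and at -0.75, -0.0012 and 0.35 without that library. Trbc1 and Trbc2 are near-identical copies, so their counts are uncertain. Cd8b1, the partner chain of CD8α, was at a mean of 0.404 CPM in Shp2f/f mice and at 3 counts in each Shp2f/fLysMcre library, the floor, and was not called (edgeR adjusted p = 0.0995).

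The γδ T cell genes, a list of 6, had the highest median of the 4 lymphocyte lists in MDSC. Of 6 tested, Sox13 and Cd163l1 were called higher and 4 were not called, and the median log2 fold change was 1.41. Sox13, a transcription factor of γδ T cells, was at 1.53 and 1.67 CPM in Shp2f/f mice and at 4.63 and 7.96 CPM in Shp2f/fLysMcre mice (log2 fold change 1.92, SE 0.299, edgeR adjusted p = 0.0334). Cd163l1, a scavenger receptor of γδ T cells, was at 6.91 and 9.43 CPM and at 21.2 and 39.9 CPM (1.84, SE 0.308, edgeR adjusted p = 0.0381). Trdc, the constant part of the δ chain, was at 2.62 and 3.69 CPM and at 6.55 and 9.99 CPM (1.34, edgeR adjusted p = 0.0676). Every Shp2f/fLysMcre library was above both Shp2f/f libraries for these genes, and the library with stromal transcripts was the highest. Without it the values were 1.54 for Sox13, 1.39 for Cd163l1 and 1.06 for Trdc, and the list's median was 1.06. Both calls were lost with either Shp2f/f library left out. Such a fit leaves 1 library in that group and lost nearly all calls over all genes, so the loss is not particular to these genes. The ratio of Trdc to Trac per kilobase was 0.554 and 1.36 in MDSC of Shp2f/f mice and 2.99 and 2.32 in MDSC of Shp2f/fLysMcre mice. In TAM of Shp2f/f mice it was 0.0228 to 0.0302, on 10 counts of Trdc in each library. In TAM of Shp2f/fLysMcre mice Trdc had 1 to 4 counts per library, around the floor of 3 counts, so no ratio is given. In TAM, Sox13 was the one gene of the list tested (log2 fold change 0.18, edgeR adjusted p = 0.721), and between the cell types of Shp2f/f mice all 6 were called lower in TAM. Exons of Trdc overlap those of other genes, and the γ constant genes are near-identical copies, so their counts are uncertain.

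**Figure D4:**
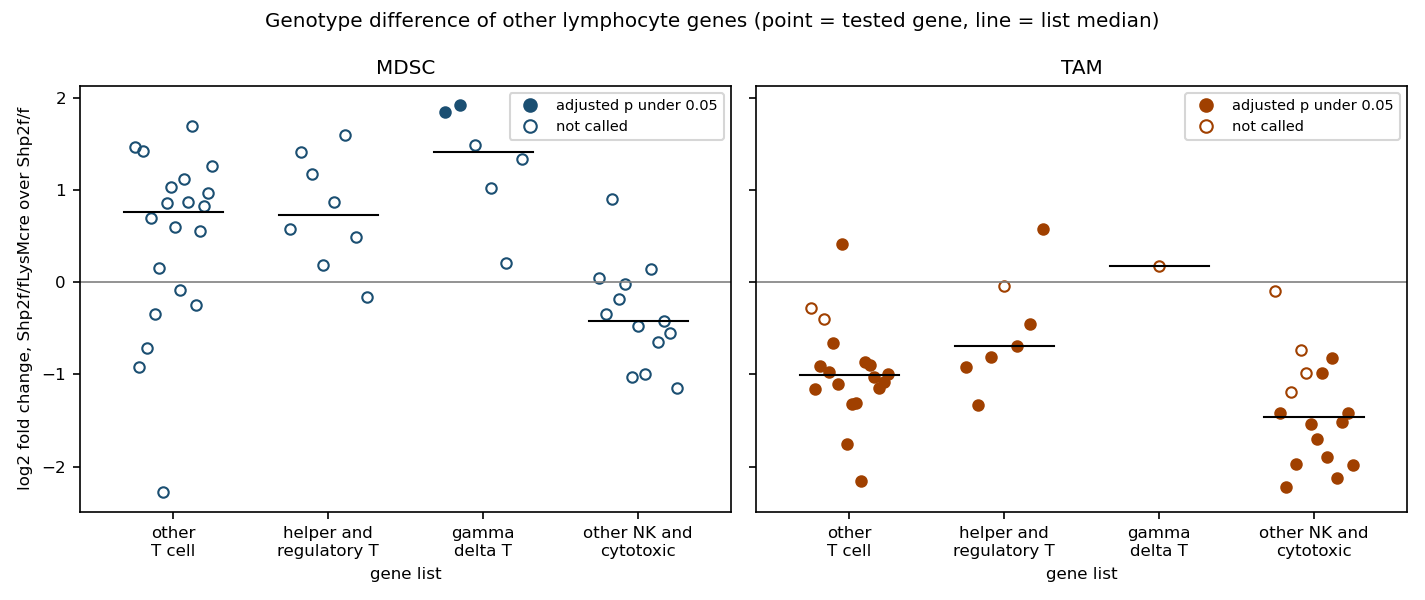
Each point is a tested gene, plotted by its log2 fold change of Shp2f/fLysMcre over Shp2f/f for 4 gene lists in MDSC and in TAM; filled points have an adjusted p under 0.05, open points do not, and the line is the list median. The γδ list has a median of 1.41 in MDSC, and the other T cell and NK lists have medians of -1.01 and -1.47 in TAM.

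Helper and regulatory T cell genes, a list of 10, were mostly lower in TAM of Shp2f/fLysMcre mice. Of 7 tested, 5 were called lower, 1 higher and 1 not called, with a median log2 fold change of -0.69. Foxp3, the factor that defines regulatory T cells, was at 2.15, 1.49 and 1.34 CPM in Shp2f/f mice and at 0.652, 0.654 and 0.520 CPM in Shp2f/fLysMcre mice (log2 fold change -1.33, SE 0.254, edgeR adjusted p = 0.00115), with exons that overlap other genes. Ctla4, an inhibitory receptor of T cells, fell from 4.42 to 2.16 CPM (-0.92, edgeR adjusted p = 0.00111), Il2ra, the α chain of the interleukin-2 receptor, from 5.23 to 3.03 CPM (-0.69, edgeR adjusted p = 0.00113), and Icos, a costimulatory receptor, from 4.50 to 2.38 CPM (-0.81, edgeR adjusted p = 0.00158). Zbtb7b, which directs the CD4 lineage in the thymus was called higher and rose from 71.3 to 99.0 CPM (0.57, SE 0.0406, edgeR adjusted p = 7.66e-07). In MDSC edgeR called 0 of 8 tested, with 3 at an unadjusted p under 0.05, and DESeq2 called 1. Their median log2 fold change was 0.73, and it was 0.45 without the library with stromal transcripts. The part of CD4 T cells in the level of Cd4 was not tested.

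The other NK and cytotoxic genes, a list of 20, were lower in TAM of Shp2f/fLysMcre mice. Of 16 tested, 12 were called lower, 0 higher and 4 not called, with a median log2 fold change of -1.47, and 6 were called lower when the minimum count was 30. Eomes, a transcription factor of NK and cytotoxic T cells, fell from 0.569 to 0.114 CPM (-2.22, SE 0.403, edgeR adjusted p = 0.000824), and Ncr1, the NK receptor NKp46, from 0.535 to 0.113 CPM (-2.13, SE 0.377, edgeR adjusted p = 0.000696), both to 2 to 5 counts per library, around the floor. Il2rb, the β chain of the interleukin-2 and interleukin-15 receptors, fell from 14.3 to 4.58 CPM (-1.54, SE 0.0791, edgeR adjusted p = 8.38e-08). Klrk1, the activating receptor NKG2D, fell from 11.7 to 6.17 CPM (-0.83, edgeR adjusted p = 7.92e-06). Ccl5, a chemokine of cytotoxic lymphocytes that macrophages also make, had the highest CPM of the list and was not called, at -0.10 (edgeR adjusted p = 0.157). In MDSC 13 were tested, with a median of -0.42. There edgeR called 0 with 2 at an unadjusted p under 0.05, DESeq2 called 0, and Il2rb, Ccl5 and Klrk1 were at -0.02, 0.04 and 0.14.

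Markers of other cell types moved with genotype beside these transcripts. In TAM the summed level of 12 macrophage genes was 9929 to 10216 CPM in Shp2f/f mice and 13678 to 14120 CPM in Shp2f/fLysMcre mice, with 11 called higher and Timd4 lower, so that most of the list and Cd4 were higher in the same libraries. Conventional dendritic cell genes, which bear on Cd4 and Cd8a, summed to 135 to 139 and 131 to 140 CPM in TAM, with 2 called higher and 3 lower, and to 184 to 196 and 187 to 219 CPM in MDSC, with 1 called higher. Plasmacytoid dendritic cell genes summed to 110 to 122 and 122 to 135 CPM in TAM, a sum made mostly of Tcf4, which was called higher, while 3 of the 5 tested, Siglech among them, were called lower and the median log2 fold change was -0.27. In MDSC they summed to 124 to 133 and 105 to 107 CPM with 1 called lower. In MDSC the macrophage genes summed to 2594 to 2679 and 2050 to 2165 CPM with 0 called by edgeR (4 at an unadjusted p under 0.05) and 4 by DESeq2, neutrophil genes to 8647 to 8801 and 20501 to 23051 CPM with 3 called higher, and mast cell and basophil genes to 17.3 to 18.0 and 37.2 to 42.9 CPM with 3 called higher. B cell genes summed to 36.8 to 48.2 and 24.97 to 30.05 CPM in MDSC with 4 called lower. Of the mast cell genes, Tpsb2 had 0 counts in all 4 MDSC libraries. In TAM the neutrophil genes summed to 4354 to 4579 and 2286 to 2341 CPM, a sum made mostly of Mmp9, which macrophages also make and which was called lower (from 4134 to 1858 CPM). Of the 7 neutrophil genes tested there, 5 were called higher and the median log2 fold change was 0.54. The B cell genes summed to 4.27 to 4.73 and 9.85 to 10.7 CPM in TAM, with Cd79b called higher among 3 tested. Mast cell and basophil genes summed to 4.40 to 8.24 and 4.13 to 5.34 CPM with 0 of 4 called by edgeR or DESeq2 and 0 at an unadjusted p under 0.05, and stromal genes to 257 to 262 and 223 to 233 CPM with 1 called higher and 2 lower. The part of these cell types in the values of the 10 transcripts was not tested. Beside them the 10 transcripts summed to 57.5 to 60.7 and 65.1 to 67.5 CPM in TAM, Cd4 included, and to 29.4 to 29.8 and 38.9 to 45.8 CPM in MDSC.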

How the data were processed

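RNA from MDSC of the spleen and TAM of the tumor was measured in 10 libraries, grouped by their titles. The authors made stranded poly(A) libraries, sequenced them as 42-base paired-end reads, trimmed them with cutadapt 2.5, aligned them to GRCm38 with STAR 2.7.3a, and deposited raw read counts per Ensembl gene made with featureCounts (Subread 1.6.2), per the labels and the methods of the study. The strand setting and the treatment of reads that match more than 1 place are not given in the sources used here. The deposited normalized counts were not used here.

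Symbols came from a GENCODE M21 annotation of GRCm38, which matched 99.5% of 55421 identifiers, and motifs were searched in RefSeq promoters (GRCm38.p6), which held 8 of the 10 genes. Counts were tested per comparison with edgeR 4.0.16 in R 4.3.3 (filterByExpr with a minimum count of 10, TMM scaling, quasi-likelihood F test) and adjusted by the Benjamini-Hochberg method over all genes tested, with calls at an adjusted p under 0.05. The fit was also tested on simulated data. Levels are CPM of the total count or, between genes, RPKM over the union of exons. The floor covers counting error only. The SE of a fold change is its absolute log2 value over the square root of F, and includes the spread between libraries. No 2 replicates agreed within sampling noise (chi-square per degree of freedom 4.46 to 58.1).

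The members and lists were chosen with earlier results of these data known. Named from each list were the 3 most abundant genes and up to 3 called genes with the largest change. 1 gene that this rule selected is not reported here. The other genes named were picked after their values were seen. Alternatives were DESeq2 1.42.0, its size factors in edgeR, total-count scaling, 2 filters on low counts, a replicate block, leaving out each library, and other reference genes or gene lengths for the Cd4 ratio. Coordinates are 1-based.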

Additional observations from a re-analysis of the deposited data

Results flagged for a closer look

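For 11 genes, all taken from the lists used here, every Shp2f/fLysMcre library lay on opposite sides of the Shp2f/f libraries in MDSC and in TAM. Of all genes tested in MDSC, 27.5% were higher and 20.3% lower without overlap. In TAM these shares were 18.9% and 40.9%. The share of all genes on opposite sides is not given here, so nothing is read from the count. The difference between the cell types was not tested. Among the members, the log2 fold change in TAM minus that in MDSC was -2.73 for Nkg7, -2.30 for Cd3e, -2.22 for Cd3g and -1.45 for Cd3d, each higher in MDSC and lower in TAM of Shp2f/fLysMcre mice.

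Among the other T cell genes it was -3.28 for Skap1, -2.59 for Thy1 and -1.10 for Cd28. Among the helper and regulatory genes it was -1.99 for Icos, -1.56 for Il2ra and -1.51 for Ctla4, and among the NK genes it was -3.12 for Eomes. Of these 11 genes, edgeR called Nkg7 in MDSC. The MDSC values of Thy1 were 5.74 and 14.9 CPM in Shp2f/fLysMcre mice, the second in the library with stromal transcripts. Without that library the MDSC log2 fold changes were 0.92 for Thy1, 0.88 for Skap1 and 1.09 for Cd28, beside 1.69, 1.12 and 0.70 with it. For Icos, Il2ra, Ctla4 and Eomes they were 0.54, 0.57, 0.36 and 0.37, beside 1.18, 0.87, 0.58 and 0.90 with it. Those of the members are given above. Eomes was also near the floor in TAM of Shp2f/fLysMcre mice. No group of 4 or more libraries was available to look for single libraries that stand apart.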

How the results depend on the processing

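Of the members' log2 fold changes under settings other than leaving out a library, 169 kept their sign and side of the threshold, 3 gained a call and 6 lost one; when a library was left out 130 kept both, 5 gained a call, 12 lost one and 3 turned in sign. The turns were those of Cd4 in MDSC, from -0.49 to 0.10 over the libraries left out (0.01 without Shp2f/f replicate 1), and of Cd3e between the cell types, from -0.18 to 0.038. With 1 library left in a group, it is assumed to vary like the other group. Genes called in MDSC numbered 633, but 1256 with DESeq2, 130 with no filter, and 1 to 4406 when a library was left out, with 1 without either Shp2f/f library, 4406 without Shp2f/fLysMcre replicate 1 and 2729 without replicate 2. Other T cell genes called in MDSC numbered 0, but 6 with DESeq2 and 0 to 12 when a library was left out. Other NK and cytotoxic genes called in TAM fell from 12 to 6 with a minimum count of 30, under which fewer genes were tested. Total-count scaling gave 2342 higher and 5227 lower calls in TAM, beside 3452 and 3805. The log2 ratio of Cd4 to CD3 became -2.96, -2.45, 2.14 and 4.45 with Lck, Cd2 and Cd5 as reference (MDSC Shp2f/f, MDSC Shp2f/fLysMcre, TAM Shp2f/f, TAM Shp2f/fLysMcre), and -2.38 in MDSC Shp2f/fLysMcre with the longest transcript as length. The cause of these changes was not tested.

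With the replicate block, 2674 genes and 11 of the other T cell genes were called in MDSC, and 5 members, Cd3e, Cd3g and Cd8a being added. Same-numbered libraries deviated together with a correlation of 0.28 in MDSC, from only 2 pairs, and of -0.14, 0.09 and 0.01 in TAM, so the numbers do not show a pairing. Low counts limit Cd8a and the CD3 chains, with 9 to 28 counts per MDSC library for Cd8a.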
